A study of Mus musculus with 6 samples.

Results

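The tumour suppressor p53, encoded in the mouse by Trp53, was followed at the level of RNA together with its best known target genes and its closest regulators in breast cancer cells kept under hydrogen peroxide. The set held 32 genes chosen by name, with earlier results of these data known, and all 32 were found by symbol among the 24454 genes of the deposited table. They fall into a core loop (Trp53, Mdm2, Mdm4, Trp53inp1, Ccng1), brakes on the cell cycle and on growth (Cdkn1a, Btg2, Plk2, Plk3, Gtse1, Zmat3, Phlda3), cell death (Bax, Bbc3, Pmaip1, Fas, Tnfrsf10b, Eda2r, Aen, Ei24, Dram1), redox balance and metabolism (Sesn1, Sesn2, Tigar, Fdxr, Gdf15, Dcxr, Ak1) and DNA repair (Ddb2, Xpc, Polk, Rrm2b).

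The p53 protein is a transcription factor that is held at a low level by Mdm2, which marks it for degradation. DNA damage and other stresses, oxidative stress among them, slow that degradation, and p53 then binds its sites and raises genes that halt the cell cycle, repair DNA or kill the cell, and also Mdm2, which closes a feedback loop. Because p53 is controlled largely as a protein, the RNA of its targets is commonly read as a sign of its activity, although most of them answer to other factors too.

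The cells were of the line MTflEcad, grown from a tumour that had arisen in the mammary gland of an MMTV-Neu mouse. In that strain the promoter of the mouse mammary tumour virus drives a Neu (Erbb2) oncogene in the breast epithelium. The lines compared were 3. PBS cells had 0 µM H2O2 and were the untreated control, I80 cells had 80 µM H2O2 each day and DI150 cells had 150 µM H2O2 each day, with a treatment length of 7 months for all of them. RNA of each line was sequenced in 2 libraries, biological duplicates by the design text, with no word on whether they were cultures kept apart through those months. Each dose is represented by 1 line, so a dose and the history of its line cannot be told apart.

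The libraries held 21017849 to 26608715 reads assigned to genes, and values are given as CPM, the reads of a gene per 1000000 of those reads. Log2 values of replicate libraries correlated across the tested genes at r = 0.997 in DI150, 0.998 in I80 and 0.991 in PBS. All 10 epithelial markers averaged 1 CPM or more over the 6 libraries, with summed levels of 9994 and 9703 CPM in PBS, 3783 and 3772 CPM in I80 and 3901 and 3551 CPM in DI150. By limma 8 of the 10 were lower in each treated line, beside 34.2% (I80) and 36.1% (DI150) of all tested genes. One, or 1 of 10, was higher in DI150 and 0 in I80. Log2 fold changes ran from -7.02 to 0.17 in I80 and from -7.20 to 0.80 in DI150. Of 8 fibroblast markers Pdgfrb and Thy1 were at 0, and the sum was 21.8 to 24.03 CPM, while its parts differed. Pdgfra had 5.04 and 5.50 CPM in PBS, 14.5 and 15.1 CPM in I80 and 18.4 and 18.98 CPM in DI150. Col1a1 had 1.47 and 2.75 CPM in PBS, 8.90 and 8.90 CPM in I80 and 3.85 and 3.63 CPM in DI150, and Col1a2 had 15.3 CPM in each PBS library and 0 in every treated library. By limma all 3, the tested fibroblast markers, passed in both treated lines, 2 higher and 1 lower in each. Of all tested genes 66.4% were called in I80 and 68.7% in DI150. Among 8 immune markers, those at 0 included Cd3e and Adgre1, with sums over the list of 9.77 and 17.2 CPM in PBS, 1.87 and 2.14 CPM in I80 and 1.81 and 1.98 CPM in DI150. Of 5 endothelial markers Kdr and Emcn were at 0 and the sum was 0.150 to 0.742 CPM. The part of these differences in the results was not tested, and in bulk RNA fewer cells that use a gene and less RNA per cell cannot be told apart.

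The promoters were read for the DNA element that p53 binds, close to start sites only, and elements farther away were not searched. RefSeq promoter windows of GRCm38.p6, from 250 bases before to 50 bases after a start site, were available for 25 of the 32 genes. The 10-base p53 half-site consensus, which is its own reverse complement, was matched exactly in at least 1 window of 10 of those 25 genes (40%), against 8.08% of the 9137 tested genes with a window and 9.55% of all 27025 genes with a window. A full site, with a spacer of 0 to 13 bases between 2 half-sites, intact cores and at most 2 other mismatches, was found for Cdkn1a, Bax, Sesn1 and Gtse1, 4 of 25 genes (16.0%), against 2.09% of the tested genes. A match is a description of letters and not a measured binding site. The genes were picked as known p53 targets or regulators, so setting their shares beside those of all genes is no test. A gene counted if any of its windows matched, and the number of windows per gene was not made alike. Stretches of 5 of the 10 genes with an exact half-site are shown 5′ to 3′ on the coding strand, with exact half-sites in capitals. They lie at chr17:29090866-29090977 (plus strand) for Cdkn1a, chr10:117710895-117710984 (minus) for Mdm2, chr11:40755422-40755511 (minus) for Ccng1, chr7:45467050-45467139 (minus) for Bax and chr11:69580244-69580333 (plus) for Trp53.
Cdkn1a: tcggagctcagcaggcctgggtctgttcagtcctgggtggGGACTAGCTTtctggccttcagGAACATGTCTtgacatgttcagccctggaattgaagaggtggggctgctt
Mdm2: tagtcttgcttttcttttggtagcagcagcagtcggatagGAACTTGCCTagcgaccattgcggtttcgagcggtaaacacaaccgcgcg
Ccng1: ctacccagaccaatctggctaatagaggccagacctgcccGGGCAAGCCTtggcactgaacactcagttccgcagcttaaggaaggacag
Bax: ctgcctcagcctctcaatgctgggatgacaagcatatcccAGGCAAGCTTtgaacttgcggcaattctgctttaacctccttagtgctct
Trp53: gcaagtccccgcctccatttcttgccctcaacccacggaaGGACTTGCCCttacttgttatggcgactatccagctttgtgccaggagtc
In the Cdkn1a stretch the 2 exact half-sites begin 73 and 51 bases before the start and are 12 bases apart. That window held 2 full sites by the rule above, and only this pair had no mismatch. The window of another Cdkn1a start held neither an exact half-site nor a full site. The half-site begins 186 bases before the start in Mdm2, 185 in Ccng1, 201 in Bax and 75 in Trp53. Genes called higher in both treated lines, as given below, differed in this respect. Mdm2, Cdkn1a, Bax and Aen had an exact half-site, while the windows of Ak1, Plk3, Tigar and Fas held neither a half-site nor a full site. Zmat3 and Tnfrsf10b had no window.

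Testing was limited to genes that averaged 1 CPM or more, which kept 28 of the 32 genes, fitted within the whole table of 11428 genes. In I80 against PBS, 15 of the 28 rose and 3 fell by limma at an adjusted p under 0.05, and 10 did not pass. Of all tested genes 66.4% were called in that comparison, 32.3% higher and 34.2% lower, so the share of p53 genes called, 64.3%, was near the background, while 53.6% were higher and 10.7% lower. In DI150 against PBS, 12 rose, 5 fell and 11 did not pass, that is 42.9% higher and 17.9% lower, beside 68.7% of all tested genes called, 32.7% higher and 36.1% lower. The median log2 fold change of the p53 genes was 0.35 in I80 and 0.13 in DI150, beside -0.00 and -0.03 for all tested genes. Both comparisons use the same PBS libraries. The libraries of I80 and PBS did not overlap for 20 of the 28 genes, 16 higher and 4 lower, beside 83.7% of all tested genes, 41.6% higher and 42.2% lower. Those of DI150 and PBS did not overlap for 20 as well, 13 higher and 7 lower, beside 83.5%, 39.7% higher and 43.8% lower. In the treated lines together, 10 genes were called higher in each, 1 (Btg2) lower in each, 2 (Phlda3 and Xpc) in opposite directions, and 6 (Mdm4, Gtse1, Bbc3, Sesn2, Dcxr and Polk) in neither. The shares of all tested genes with such joint calls were not counted, so these counts have no background beside them.

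**Figure D1:**
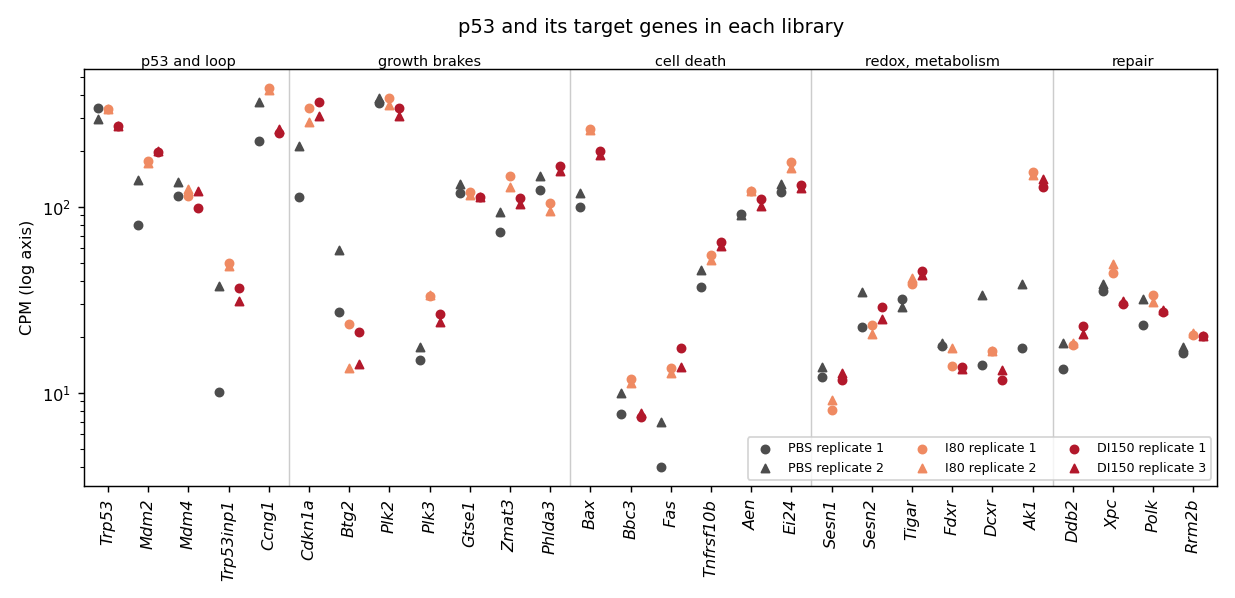
Level of each of the 28 tested genes in every library, in CPM on a log axis, grouped by role; colours mark the lines PBS, I80 and DI150 and symbols the replicate libraries. Ak1 stands at 17.4 and 38.4 CPM in PBS and between 128 and 153 CPM in the treated lines, and the PBS libraries lie far apart for Trp53inp1 (10.1 and 37.6 CPM).

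**Figure D2:**
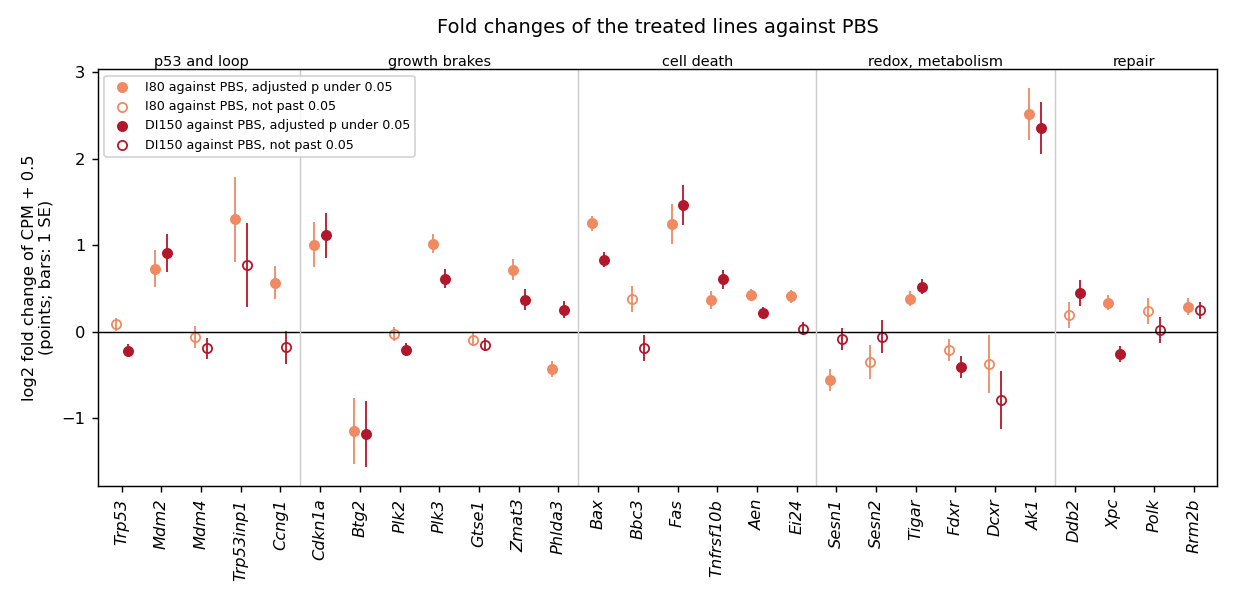
Log2 fold change of CPM + 0.5 for I80 and DI150 against PBS with bars of 1 standard error, filled where the limma adjusted p was under 0.05. Ak1 is highest at 2.52 and 2.35 and Btg2 lowest at -1.14 and -1.18, and Phlda3 and Xpc lie on opposite sides of 0 in the treated lines.

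In the core loop, Mdm2 rose in both treated lines and Trp53inp1 and Ccng1 rose in I80, while Trp53 fell slightly in DI150. Trp53 RNA had 338 and 297 CPM in PBS, 337 and 336 CPM in I80 and 272 and 272 CPM in DI150. The I80 values lay within the PBS range and both DI150 libraries lay below every other library. Its DI150 level was 0.856-fold that of PBS (log2 -0.22 ± 0.08 SE, limma adjusted p = 0.0308), and its I80 level was 1.06-fold (adjusted p = 0.339). Mdm2, the ligase that degrades p53, had 79.6 and 139 CPM in PBS, 177 and 173 CPM in I80 and 197 and 199 CPM in DI150. The 3 lines did not overlap, and the PBS libraries were the ones that lay apart. Its level was 1.60-fold in I80 (log2 0.73 ± 0.22, adjusted p = 0.0183) and 1.81-fold in DI150 (0.91 ± 0.22, adjusted p = 0.00650). Mdm4, the partner of Mdm2 in holding p53 back, had 114 and 136 CPM in PBS, 115 and 124 CPM in I80 and 98.2 and 121 CPM in DI150, and the lines overlapped (adjusted p = 0.671 in I80 and 0.197 in DI150).

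Trp53inp1, a target that promotes phosphorylation of p53 and autophagy, had 10.1 and 37.6 CPM in PBS, 49.98 and 47.9 CPM in I80 and 36.7 and 31.1 CPM in DI150. The I80 libraries were the highest and the DI150 libraries lay inside the wide PBS range. Its I80 level was 2.05-fold that of PBS (log2 1.30 ± 0.49, limma adjusted p = 0.0462), and its DI150 level was 1.42-fold (adjusted p = 0.192). Ccng1, cyclin G1, which acts with a phosphatase on Mdm2, had 227 and 367 CPM in PBS, 435 and 423 CPM in I80 and 249 and 261 CPM in DI150. Again I80 stood above every other library and DI150 lay within the PBS range. The I80 level was 1.44-fold (log2 0.57 ± 0.19, adjusted p = 0.0293) and the DI150 level 0.857-fold (adjusted p = 0.419).

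Several of the core calls lay near the threshold, and 18 alternatives in scaling, filter, tool and libraries were tried for each. The rise of Mdm2 in I80 was lost in 2 of the 18, without I80 replicate 1 (adjusted p = 0.0779) or I80 replicate 2 (0.0684), where its log2 fold change was 0.71 and 0.74. That of Trp53inp1 was lost in 10, with adjusted p up to 0.195, by DESeq2. It was lost with only the 4 libraries compared (0.0803) and without either DI150 library (0.0803 and 0.0805), where the log2 fold change of 1.30 is the same and fewer libraries give the error, and by edgeR (0.0592). That of Ccng1 was lost in 7, among them DESeq2 (0.0719), only the 4 libraries compared (0.0557, with the same log2 fold change of 0.57) and leaving out either I80 library (0.113 and 0.0931). Without PBS replicate 1 these rises were smaller, at log2 0.33 for Mdm2, 0.37 for Trp53inp1 and 0.22 for Ccng1, and still called. The fall of Trp53 in DI150 was lost in 8, among them median-of-ratios scaling (0.051), only the 4 libraries compared (0.0695), the replicate block (0.102) and leaving out PBS replicate 1 (0.0551, log2 -0.13).

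Among the brakes, Cdkn1a, Plk3 and Zmat3 rose in both treated lines, Btg2 fell in both, and Phlda3 fell in I80 and rose in DI150. Cdkn1a encodes p21, the inhibitor of cyclin-dependent kinases through which p53 halts the cell cycle. It had 113 and 212 CPM in PBS, 339 and 284 CPM in I80 and 365 and 307 CPM in DI150, with both treated lines above PBS and overlapping each other. The ratio of means was 1.92 in I80 (log2 1.01 ± 0.26 SE, limma adjusted p = 0.00982) and 2.07 in DI150 (1.11 ± 0.26, adjusted p = 0.00589). Plk3, a stress kinase, had 14.995 and 17.6 CPM in PBS, 33.4 and 33.6 CPM in I80 and 26.5 and 23.9 CPM in DI150. The 3 lines were separate, I80 the highest, at 2.05-fold (log2 1.02 ± 0.11, adjusted p = 0.000118) and 1.54-fold for DI150 (0.61 ± 0.11, adjusted p = 0.00167). Zmat3, an RNA-binding protein that acts in tumour suppression by p53, had 73.5 and 94.3 CPM in PBS, 146 and 128 CPM in I80 and 112 and 104 CPM in DI150. Its order of lines was that of Plk3, at 1.64-fold in I80 (log2 0.72 ± 0.12, adjusted p = 0.00134) and 1.28-fold in DI150 (0.37 ± 0.12, adjusted p = 0.0290).

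Phlda3, which restrains growth by blocking Akt at the membrane, had 123 and 146 CPM in PBS, 104 and 94.6 CPM in I80 and 165 and 155 CPM in DI150. The lines were separate, with I80 below and DI150 above PBS, at 0.739-fold (log2 -0.43 ± 0.10, limma adjusted p = 0.00491) and 1.19-fold (0.25 ± 0.10, adjusted p = 0.0459). Btg2, an antiproliferative gene that promotes the decay of messenger RNA, had 27.3 and 58.8 CPM in PBS, 23.5 and 13.6 CPM in I80 and 21.1 and 14.3 CPM in DI150. All treated libraries were below both PBS libraries, which differed widely, and the means were 0.430-fold in I80 (log2 -1.14 ± 0.38, adjusted p = 0.0300) and 0.411-fold in DI150 (-1.18 ± 0.38, adjusted p = 0.0254). Plk2, a kinase related to Plk3, had 364 and 383 CPM in PBS, 383 and 351 CPM in I80 and 339 and 308 CPM in DI150. Only its DI150 libraries were apart, at 0.867-fold of PBS (log2 -0.21 ± 0.08, adjusted p = 0.0461). Gtse1, a microtubule-bound protein that carries p53 out of the nucleus, had 119 and 133 CPM in PBS, 120.2 and 115 CPM in I80 and 114 and 112 CPM in DI150 and did not pass (adjusted p = 0.301 and 0.105).

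Some of these calls were lost under the alternatives. In I80, Cdkn1a was not called without I80 replicate 1 (adjusted p = 0.0643), and Btg2 not without PBS replicate 2 (0.237) or I80 replicate 2 (0.184), by DESeq2 (0.0558), with robust variances (0.0549) or without the filter on low values (0.0641). In DI150, Btg2 was not called without PBS replicate 2 (0.21) or DI150 replicate 3 (0.157), without the filter (0.0553) or with the replicate block (0.171). Zmat3 was not called there without PBS replicate 1 (0.152), DI150 replicate 1 (0.146) or DI150 replicate 3 (0.0682), without the filter (0.0535) or with the block (0.0532). The rise of Phlda3 in DI150 was not called without PBS replicate 1 (0.207), either I80 library (0.0688 and 0.0687), DI150 replicate 1 (0.2) or DI150 replicate 3 (0.0855), and was lost in 10 of the 18 alternatives, the others being no filter (0.0709), quantile scaling (0.058), only the 4 libraries compared (0.0677) and both forms of the block (0.0963 and 0.0647). The fall of Plk2 in DI150 was lost in 13 of the 18. It failed by edgeR (0.0621) and DESeq2 (0.0655), with TMM (0.0549) and median-of-ratios scaling (0.0718), without the filter (0.0702), with only the 4 libraries compared (0.0755), with both forms of the block (0.35 and 0.0594) and on leaving out each library except DI150 replicate 1 (0.0654 to 0.239).

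Of the 6 tested genes of cell death, 5 rose in I80 and 4 in DI150 (83.3% and 66.7%, beside 32.3% and 32.7% of all tested genes higher). With both PBS libraries in the fit, the count of these 6 lower than PBS was 0 in both lines by limma, edgeR and DESeq2. It was also 0 at an unadjusted p under 0.05. Bax, which permeabilises the outer mitochondrial membrane, had 100.2 and 118 CPM in PBS, 262 and 258 CPM in I80 and 199 and 189.8 CPM in DI150. I80 was the highest line and both treated lines lay well above PBS. The fold was 2.38 in I80 (log2 1.25 ± 0.09 SE, limma adjusted p = 1.09e-05) and 1.78 in DI150 (0.83 ± 0.09, adjusted p = 8.85e-05). Of the exon length of Bax, 12.2% is shared with the gene Gm45808 on the same strand, so a part of its reads is uncertain. Fas, a death receptor, had 3.98 and 6.96 CPM in PBS, 13.6 and 12.8 CPM in I80 and 17.3 and 13.8 CPM in DI150. Every treated library was above both PBS libraries, at 2.41-fold in I80 (log2 1.24 ± 0.23, adjusted p = 0.00213) and 2.84-fold in DI150 (1.46 ± 0.23, adjusted p = 0.000887). Tnfrsf10b, the mouse receptor for the death ligand TRAIL, had 37.1 and 46.0 CPM in PBS, 54.9 and 52.0 CPM in I80 and 64.9 and 61.5 CPM in DI150. PBS was lowest and DI150 highest without overlap, at 1.29-fold in I80 (log2 0.37 ± 0.11, adjusted p = 0.0185) and 1.52-fold in DI150 (0.61 ± 0.11, adjusted p = 0.00161). By limma its difference between DI150 and I80 did not pass (adjusted p = 0.112).

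Aen, a nuclease of apoptotic cells, had 91.0 and 90.3 CPM in PBS, 122 and 121 CPM in I80 and 111 and 101 CPM in DI150. I80 was the highest and DI150 in between, at 1.34-fold (log2 0.42 ± 0.07, limma adjusted p = 0.00110) and 1.16-fold (0.22 ± 0.07, adjusted p = 0.0248). Ei24, a protein of the endoplasmic reticulum tied to autophagy, had 119.8 and 132 CPM in PBS, 173 and 162 CPM in I80 and 131 and 127 CPM in DI150. Only I80 stood apart, at 1.33-fold (log2 0.41 ± 0.07, adjusted p = 0.00172), against 1.02-fold in DI150 (adjusted p = 0.687). Bbc3 (Puma), a BH3-only activator of Bax, was low at 7.67 and 10.0 CPM in PBS, 11.8 and 11.3 CPM in I80 and 7.42 and 7.82 CPM in DI150. Its I80 libraries were above both others without passing against PBS (log2 0.38 ± 0.15, adjusted p = 0.0539), and DI150 did not pass either (-0.19 ± 0.15, adjusted p = 0.282). The DI150 log2 fold change of Bbc3 was -0.37 against PBS replicate 2 alone and -0.0083 against PBS replicate 1 alone.

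Of these calls, that of Tnfrsf10b in I80 was lost without PBS replicate 1 (adjusted p = 0.0535), I80 replicate 1 (0.111) or I80 replicate 2 (0.06). That of Aen in DI150 was lost without PBS replicate 2 (0.0525), either I80 library (0.0618 each) or DI150 replicate 1 (0.151), with only the 4 libraries compared (0.0624) or with the replicate block (0.0719). Bbc3 in I80 passed under 4 of the 18 alternatives.

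The remaining genes of death and 1 metabolic target were too low to test. Pmaip1 (Noxa), another BH3-only gene, had 0 reads in every library, where 3 reads would be 0.113 to 0.143 CPM. Dram1, a lysosomal gene of p53-dependent autophagy, had 18 reads over the PBS libraries, 24 over I80 and 2 over DI150. Its pooled DI150 to PBS ratio was 0.121 (exact 95% interval 0.0136 to 0.505, counting error only) and its DI150 to I80 ratio was 0.0880 (0.0101 to 0.355). Eda2r, a receptor for ectodysplasin, had 0.413 and 1.74 CPM in PBS, 0.351 and 0.289 CPM in I80 and 0.571 and 0.420 CPM in DI150, with the PBS libraries 4.21-fold apart. Its pooled ratio to PBS was 0.305 in I80 (exact 95% interval 0.163 to 0.541) and 0.463 in DI150 (0.271 to 0.767). These intervals hold counting error only and not that spread of the PBS libraries. Gdf15, a secreted stress cytokine, had 9 reads over PBS, 4 over I80 and 5 over DI150.

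Genes of redox balance and metabolism moved in different directions. Ak1, adenylate kinase, which balances ATP, ADP and AMP, had the largest change of the 28 genes. It had 17.4 and 38.4 CPM in PBS, 153 and 148 CPM in I80 and 128 and 141 CPM in DI150, with every treated library far above both PBS libraries. The folds were 5.40 in I80 (log2 2.52 ± 0.30 SE, limma adjusted p = 0.000185) and 4.82 in DI150 (2.35 ± 0.30, adjusted p = 0.000252). Tigar, a phosphatase that turns sugar from glycolysis to the pathway that makes NADPH, had 31.8 and 29.1 CPM in PBS, 38.3 and 41.5 CPM in I80 and 44.9 and 42.9 CPM in DI150. PBS was lowest and DI150 highest without overlap, at 1.31-fold in I80 (log2 0.38 ± 0.09, adjusted p = 0.00619) and 1.44-fold in DI150 (0.52 ± 0.09, adjusted p = 0.00127). By limma its difference between DI150 and I80 did not pass (adjusted p = 0.249).

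The sestrins, which lower peroxide and restrain mTORC1, did not rise against PBS in either line. Sesn1 had 12.1 and 13.8 CPM in PBS, 8.12 and 9.19 CPM in I80 and 11.7 and 12.8 CPM in DI150. Only I80 was apart, and lower, at 0.666-fold (log2 -0.56 ± 0.13, limma adjusted p = 0.00596), against 0.941-fold in DI150 (adjusted p = 0.587). Sesn2 had 22.5 and 34.9 CPM in PBS, 23.0 and 20.8 CPM in I80 and 29.0 and 24.99 CPM in DI150, and neither line was separate from PBS (adjusted p = 0.145 and 0.807). Fdxr, the mitochondrial ferredoxin reductase, had 17.8 and 18.6 CPM in PBS, 13.9 and 17.5 CPM in I80 and 13.7 and 13.5 CPM in DI150. Both treated lines lay below PBS, and the DI150 level of 0.746-fold passed (log2 -0.41 ± 0.13, adjusted p = 0.0230) while I80 did not (adjusted p = 0.174). Dcxr, a carbonyl reductase, had 14.1 and 33.6 CPM in PBS, 16.7 and 16.7 CPM in I80 and 11.7 and 13.2 CPM in DI150, with PBS replicate 2 alone standing high (adjusted p = 0.348 and 0.0662).

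In this group the I80 calls were lost for Sesn1 without I80 replicate 1 (adjusted p = 0.057) and for Tigar without I80 replicate 2 (0.0656). The DI150 call of Fdxr was lost without PBS replicate 1 (0.0631), PBS replicate 2 (0.0926), DI150 replicate 1 (0.0825) or DI150 replicate 3 (0.0928), with quantile scaling (0.0566) or with the replicate block (0.193).

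The 4 repair genes showed small differences. Xpc, which recognises damage in nucleotide excision repair, had 35.1 and 38.3 CPM in PBS, 44.1 and 49.0 CPM in I80 and 30.1 and 31.2 CPM in DI150. I80 lay above and DI150 below PBS, at 1.27-fold (log2 0.34 ± 0.09 SE, limma adjusted p = 0.0128) and 0.834-fold (-0.26 ± 0.09, adjusted p = 0.0375). Ddb2, its partner in damage recognition, had 13.5 and 18.6 CPM in PBS, 18.03 and 18.4 CPM in I80 and 22.7 and 20.8 CPM in DI150. DI150 was above all other libraries, at 1.36-fold of PBS (log2 0.44 ± 0.15, adjusted p = 0.0318), and I80 overlapped PBS (adjusted p = 0.286). Of the exon length of Ddb2, 23.8% lies opposite Acp2, and whether strand was used in counting is not given in the sources used here. Rrm2b, a ribonucleotide reductase subunit that supplies nucleotides for repair, had 16.3 and 17.6 CPM in PBS, 20.6 and 21.02 CPM in I80 and 20.2 and 20.2 CPM in DI150. Both treated lines were above PBS, I80 at 1.23-fold (log2 0.29 ± 0.10, adjusted p = 0.0302) and DI150 at 1.19-fold without passing (0.25 ± 0.10, adjusted p = 0.0511). Polk, a DNA polymerase that copies past lesions, had 23.1 and 31.9 CPM in PBS, 33.7 and 30.7 CPM in I80 and 27.2 and 27.8 CPM in DI150 and did not pass (adjusted p = 0.188 and 0.928).

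The repair calls in I80 were lost for Xpc without PBS replicate 1 (adjusted p = 0.0527) or I80 replicate 2 (0.121), and for Rrm2b on leaving out each library except PBS replicate 2 (0.0527 to 0.15), by DESeq2 (0.0617), with the replicate block (0.0749) or with only the 4 libraries compared (0.055). In DI150, Xpc was lost without PBS replicate 2 (0.121), either I80 library (0.0619 and 0.0629), DI150 replicate 1 (0.147) or DI150 replicate 3 (0.0887), by DESeq2 (0.0639), with quantile scaling (0.0698), the block (0.219) or only the 4 libraries compared (0.0657). Ddb2 was lost there without PBS replicate 1 (0.111), either I80 library (0.0587 each), DI150 replicate 1 (0.154) or DI150 replicate 3 (0.074), without the filter (0.0563) or with only the 4 libraries compared (0.0585).

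Per kilobase of merged exon, the scale on which levels of different genes may be set side by side, Trp53 averaged 78.5 CPM per kb in PBS, 83.2 in I80 and 67.2 in DI150. Phlda3 was the highest of the p53 genes in PBS, at 86.4 CPM per kb, with Ccng1 at 84.7 and Plk2 at 83.1, and these means lie within the spread of the PBS libraries. Bax averaged 69.4 CPM per kb in PBS, 165 in I80 and 123 in DI150, and was the highest of the p53 genes in both treated lines. Ak1 averaged 10.8 CPM per kb in PBS, 58.0 in I80 and 51.9 in DI150.

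DI150 was then set against I80, a comparison that also tests the difference between the effects of the treated lines against PBS. Of the 28 genes 2 were higher and 8 lower in DI150 and 18 did not pass, beside 43.8% of all tested genes called, 21.9% in each direction. The median log2 difference was -0.17 for the p53 genes. The libraries of the treated lines did not overlap for 25 of them, 8 higher and 17 lower in DI150, beside 78.5% of all tested genes, 39.3% higher and 39.2% lower. Phlda3 (1.61-fold, log2 0.68 ± 0.10 SE, limma adjusted p = 0.00130) and Sesn1 (1.41-fold, 0.48 ± 0.13, adjusted p = 0.0209) were higher in DI150. Ccng1 was lower at 0.595-fold (-0.75 ± 0.19, adjusted p = 0.0158), as were Xpc at 0.658-fold (-0.59 ± 0.09, adjusted p = 0.00201) and Bbc3 at 0.659-fold (-0.57 ± 0.15, adjusted p = 0.0180). Bax stood at 0.748-fold (-0.42 ± 0.09, adjusted p = 0.00700), Plk3 at 0.752-fold (-0.41 ± 0.11, adjusted p = 0.0215) and Ei24 at 0.770-fold (-0.38 ± 0.07, adjusted p = 0.00575). Trp53 (0.808-fold, -0.31 ± 0.08, adjusted p = 0.0139) and Aen (0.869-fold, -0.20 ± 0.07, adjusted p = 0.0478) made up the rest. Cdkn1a (1.08-fold, log2 0.11 ± 0.26), Mdm2 (1.13-fold, 0.18 ± 0.22), Fas (1.18-fold, 0.22 ± 0.23) and Ak1 (0.894-fold, -0.16 ± 0.30) did not pass between the treated lines, and their errors leave room for a difference either way.

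Between the treated lines only the calls of Phlda3 and Xpc held under every alternative tried. Ei24 was lost without I80 replicate 1 (adjusted p = 0.0678), and Bax without I80 replicate 1 (0.0591), I80 replicate 2 (0.053) or DI150 replicate 3 (0.0527). Trp53, Ccng1, Plk3, Bbc3, Aen and Sesn1 were each lost on leaving out each of the 4 libraries of I80 and DI150. Their adjusted p then ran from 0.0648 to 0.0945 for Trp53, 0.0695 to 0.0918 for Ccng1, 0.0536 to 0.124 for Plk3, 0.069 to 0.113 for Bbc3, 0.0524 to 0.237 for Aen and 0.0622 to 0.149 for Sesn1. With the replicate block these 8 calls were lost as well (0.0693 to 0.409), and that of Aen was lost in 13 of the 18 alternatives, by edgeR (0.0624) and DESeq2 (0.101) among them.

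The PBS libraries themselves lay apart for many of the p53 genes. PBS replicate 2 was above PBS replicate 1 for 25 of the 28 tested genes, beside 56.9% of all tested genes, and at least 1.5-fold above it for 9 of them, beside 5.94% of all tested genes. Those 9 were Trp53inp1 (3.74-fold), Dcxr (2.39-fold), Ak1 (2.21-fold), Btg2 (2.15-fold), Cdkn1a (1.88-fold), Mdm2 and Fas (1.75-fold each), Ccng1 (1.62-fold) and Sesn2 (1.55-fold). Trp53 itself was at 0.880-fold in PBS replicate 2 and, with Aen and Tigar, was among the 3 genes that were lower there. The median log2 ratio of PBS replicate 2 to PBS replicate 1 was 0.28 for the p53 genes and 0.04 for all tested genes. None of the 28 was at least 1.5-fold lower in PBS replicate 2, beside 0.149% of all tested genes. I80 replicate 2 was above I80 replicate 1 for 8 of the 28 genes (51.7% of all tested genes), with a median of -0.05. Btg2 alone was at least 1.5-fold apart in I80, and lower in replicate 2 (0.219% of all tested genes were at least 1.5-fold higher and 0.21% lower). DI150 replicate 3 was above DI150 replicate 1 for 11 of the 28 (56.6% of all tested genes), with a median of -0.05 and 0 genes at least 1.5-fold apart (0.63% of all higher and 0.543% lower). The summed immune markers moved in the same direction between the PBS libraries, 9.77 and 17.2 CPM, and their part in the difference was not tested. That sum does not stand for the whole list, since 2 of the 8 markers averaged 1 CPM or more. By limma 1 of these 2 was lower in both treated lines, beside 34.2% (I80) and 36.1% (DI150) of all tested genes. The other passed in neither line.

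**Figure D3:**
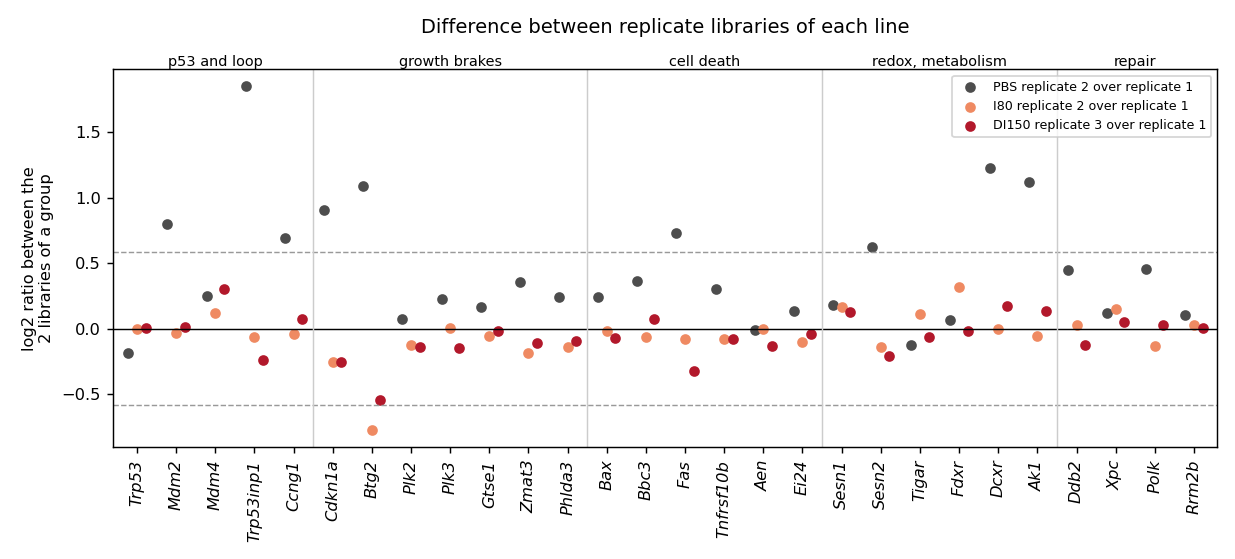
Log2 ratio between the replicate libraries of each line for the 28 tested genes, with dashed lines at a 1.5-fold difference. PBS points lie above 0 for 25 of the 28 genes and above the upper dashed line for 9, and the single treated point past a dashed line is Btg2 in I80.

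The comparisons with PBS were therefore given with each PBS library alone, the lone library being assumed to vary like the other groups. How many of all tested genes were called with either PBS library was not counted. Without PBS replicate 1, 13 of the 28 genes were higher and 6 lower in I80, beside 31.1% and 34.3% of all tested genes (65.4% called). Without PBS replicate 2, 18 were higher and 2 lower, beside 33.2% and 33.4% (66.6% called). The rises of Mdm2, Trp53inp1, Ccng1, Cdkn1a, Plk3, Zmat3, Bax, Fas, Aen, Ei24, Tigar and Ak1 in I80, 12 in all, and the falls of Phlda3 and Sesn1 were called with either library. In DI150, 9 were higher and 6 lower without PBS replicate 1, beside 31.5% and 35.9% of all tested genes (67.3% called), and 13 were higher and 1 lower without PBS replicate 2, beside 33.3% and 35.6% (68.9% called). The rises of Mdm2, Cdkn1a, Plk3, Bax, Fas, Tnfrsf10b, Tigar and Ak1, 8 in all, were called with either library, and 0 of the falls were. The median log2 fold change of the p53 genes was 0.22 and 0.42 in I80 and -0.08 and 0.25 in DI150, without PBS replicate 1 and without PBS replicate 2 in each case, so the sign of the DI150 median depended on the PBS library. Some genes not called with both PBS libraries lay lower against PBS replicate 2 alone. Dcxr was then at log2 -0.99 in I80 and -1.40 in DI150, Ccng1 at -0.53 in DI150 and Sesn2 at -0.66 in I80. Against PBS replicate 1 alone the same values were 0.24, -0.18, 0.17 and -0.04.

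**Figure D4:**
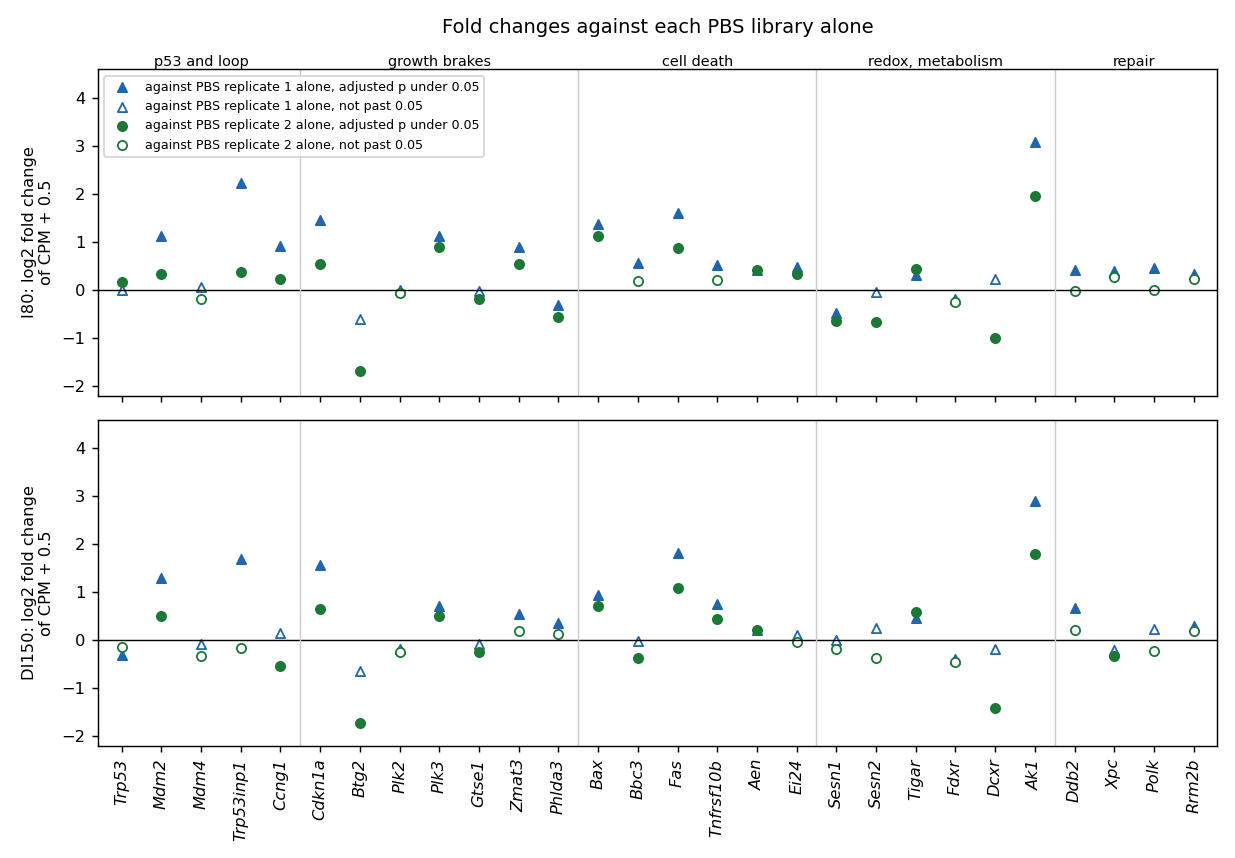
Log2 fold change of CPM + 0.5 of the 28 tested genes in I80 (upper panel) and DI150 (lower panel) against each PBS library alone, filled where the limma adjusted p was under 0.05. Against PBS replicate 1 the points lie higher for most genes, and Bax, Fas, Plk3, Cdkn1a, Mdm2 and Ak1 are above 0 and called against either library in both panels.

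The 32 genes lie on 17 chromosomes and the 28 tested ones on 14, and the median log2 fold change of all tested genes differed between these. On chromosome 3 it was 0.10 in I80 and 0.38 in DI150, beside 0.72 and 0.37 for Zmat3, so the DI150 rise of Zmat3 was about that of its chromosome. On chromosome 11 it was -0.14 in I80 and -0.20 in DI150, and the DI150 fall of Trp53, at -0.22, was likewise near it. On chromosome 1 it was -0.43 in I80 and -0.35 in DI150, where Phlda3 was at -0.43 and 0.25 and Btg2 at -1.14 and -1.18. Chromosome 7 stood at 0.28 and 0.15, beside 0.42 and 0.22 for Aen and 1.25 and 0.83 for Bax. Chromosome 2 stood at 0.43 and 0.19, beside 2.52 and 2.35 for Ak1 and 0.20 and 0.44 for Ddb2. Chromosome 17 stood at 0.10 and 0.28, beside 1.01 and 1.11 for Cdkn1a. The medians were negative on chromosome 4 (-0.20 and -0.35). There Plk3 was at 1.02 and 0.61, Trp53inp1 at 1.30 and 0.77 and Sesn2 at -0.35 and -0.06. Chromosome 14 stood at -0.59 and -0.41, beside 0.37 and 0.61 for Tnfrsf10b. Chromosome 15 stood at -0.49 and -0.46, beside 0.29 and 0.25 for Rrm2b and -0.09 and -0.15 for Gtse1. The medians of the other 5 chromosomes lay between -0.05 and 0.18. The part of these shifts in the results was not tested.

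Upstream of p53, 7 of 18 tested regulators rose and 4 fell in I80, and 6 rose and 4 fell in DI150, with median log2 fold changes of 0.11 and -0.09. The shares called, 61.1% and 55.6%, were below the 66.4% and 68.7% of all tested genes, and the shares higher, 38.9% and 33.3%, were near the 32.3% and 32.7% of all. Chek2, a checkpoint kinase that phosphorylates p53, had 22.6 and 23.9 CPM in PBS, 36.8 and 37.0 CPM in I80 and 45.0 and 38.0 CPM in DI150, and rose in both treated lines (log2 0.66 ± 0.10 SE and 0.82 ± 0.10, limma adjusted p = 0.000771 and 0.000229). Atr, the kinase of replication stress, had 59.0 and 56.9 CPM in PBS, 47.2 and 45.0 CPM in I80 and 36.8 and 40.4 CPM in DI150, and fell in both (log2 -0.33 ± 0.08 and -0.58 ± 0.08, adjusted p = 0.00900 and 0.000464). The acetyltransferase gene Ep300 rose 1.63-fold in DI150 (adjusted p = 5.4e-05), Daxx 1.48-fold in DI150 (adjusted p = 0.00159), and Prkdc 1.54-fold (adjusted p = 0.00044) and Trp53bp1 1.39-fold (adjusted p = 0.00028) in I80. Wrap53, the neighbour of Trp53 in the opposite direction, was at 0.713-fold in DI150 (adjusted p = 0.00272) and Cop1, another ligase for p53, at 0.794-fold (0.0344). Sirt1, a deacetylase of p53, was at 0.736-fold (0.0424) and Hipk2, a kinase of p53, at 0.826-fold (0.0197) in I80.

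Some of the upstream calls were also lost without a library. Atr in I80 was not called without I80 replicate 2 (adjusted p = 0.078), Hipk2 not without I80 replicate 1 (0.0875) or I80 replicate 2 (0.113), and Sirt1 was lost on leaving out each library of PBS or I80 (0.0943 to 0.192). Cop1 in DI150 was lost on leaving out each library except DI150 replicate 3 (0.0607 to 0.212).

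The other members of the p53 family were near the floor in the treated lines. Trp63, a factor of basal epithelium, had 1.13 and 1.90 CPM in PBS, 0.117 and 0.0412 CPM in I80 and 0.190 and 0.153 CPM in DI150, below the level set for testing. Trp73 had reads only in PBS replicate 2, at 0.0809 CPM. Cdkn2a, whose product Arf blocks Mdm2, and its neighbour Cdkn2b had 0 reads in every library, while Mtap beside them had 475.5 and 446.9 CPM in PBS, 959 and 914 CPM in I80 and 416 and 417 CPM in DI150. Cdkn2b and Mtap were looked at after the value of Cdkn2a was seen.

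A further list of 30 known p53 targets, 27 of them tested, did not share a direction. In I80, 10 rose and 11 fell, and in DI150, 9 rose and 10 fell, with medians of -0.02 and 0.14. The shares higher (37.0% in I80 and 33.3% in DI150) and lower (40.7% and 37.0%) were near those of all tested genes, 32.3% and 32.7% higher and 34.2% and 36.1% lower. Pml, the scaffold of nuclear bodies, had 52.99 and 68.5 CPM in PBS, 162 and 152 CPM in I80 and 222 and 210.3 CPM in DI150, and rose in both treated lines (log2 1.38 ± 0.12 SE and 1.84 ± 0.12, limma adjusted p = 3.01e-05 and 6.14e-06). Ephx1, an epoxide hydrolase, rose 2.47-fold in each line (adjusted p = 0.000661 in I80 and 0.000645 in DI150), Sulf2, a sulfatase of heparan sulfate, 2.18-fold in I80 (0.000154), and Lpin1, a lipid phosphatase, 2.18-fold in DI150 (0.000661). Steap3, a ferrireductase of endosomes, had 28.5 and 37.8 CPM in PBS, 0.702 and 0.577 CPM in I80 and 0.143 and 0.0382 CPM in DI150, and fell in both (log2 -4.87 ± 0.20 and -5.83 ± 0.20, adjusted p = 6.95e-07 and 2.7e-07). Ndrg1 fell to 0.0975-fold in I80 (3.56e-05) and 0.0569-fold in DI150 (1.06e-05), and Ddit4, an mTORC1 inhibitor raised by low oxygen, to 0.203-fold (0.000144) and 0.155-fold (5.65e-05). Without PBS replicate 1 or I80 replicate 1 the list had 5 rises in I80.

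Genes of cell division that p53 can lower through p21 and the DREAM repressor complex were mostly lower. Of 19 such genes, all tested, 10 fell and 2 rose in I80, and 17 fell and 0 rose in DI150, with medians of -0.26 and -0.60. Of all tested genes 34.2% were lower in I80 and 36.1% lower in DI150, as given above. The part of p53 in these falls was not tested. DI150 was lower than I80 for 10 of the 19 and higher for 0, beside 21.9% of all tested genes in each direction, with a median of -0.37. Both counts of 0 were the same by limma, edgeR and DESeq2 and at an unadjusted p under 0.05. Mcm5, a subunit of the replicative helicase, had 682 and 551 CPM in PBS, 306 and 326 CPM in I80 and 283 and 289 CPM in DI150, and fell in both treated lines (log2 -0.96 ± 0.10 SE and -1.10 ± 0.10, limma adjusted p = 0.000103 and 4.68e-05). E2f1, the factor of S-phase entry, had 54.5 and 58.5 CPM in PBS, 57.6 and 59.5 CPM in I80 and 27.0 and 27.9 CPM in DI150, and its fall in DI150 alone passed (log2 -1.03 ± 0.08, adjusted p = 1.64e-05). Melk, a mitotic kinase, fell to 0.631-fold in I80 (0.000178) and 0.466-fold in DI150 (1.13e-05), and Tk1, thymidine kinase, to 0.609-fold in I80 (6.34e-05) and 0.659-fold in DI150 (0.000151). The rises in I80 were those of Bub1 (1.19-fold, adjusted p = 0.0271) and Cdc25c (1.15-fold, 0.0375). Bub1 was not called there without PBS replicate 1 (0.111), I80 replicate 1 (0.109) or I80 replicate 2 (0.128), and Cdc25c was lost on leaving out each library except PBS replicate 2 (0.051 to 0.199). Over all alternatives 16 to 17 of the 19 fell in DI150 and 8 to 11 in I80.

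**Figure D5:**
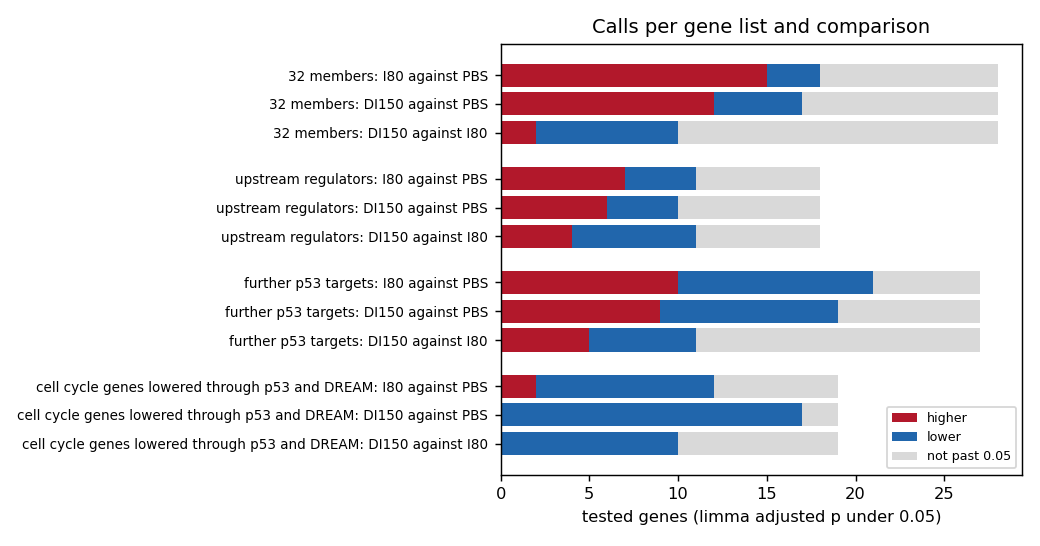
Number of tested genes called higher, called lower or not past a limma adjusted p of 0.05 in each comparison. The lists are the 32 p53 genes, the upstream regulators, the further p53 targets and the cell cycle genes that p53 can lower through DREAM. The p53 genes show 15 higher and 3 lower in I80 against PBS, and the cell cycle genes 17 lower and 0 higher in DI150 against PBS.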

How the data were processed

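A single table was deposited by the authors in CPM (a gene's reads per 1000000 assigned reads), holding 24454 gene numbers and 6 columns, 1 for each library. Reads were aligned with STAR to mm10, per the submitters' processing notes, which give no version. Per the labels' protocols, total RNA depleted of ribosomal RNA was sequenced as single reads. Which counter and annotation were used, and whether strand was read, is not given in the sources used here. A DI150 column carries the number 3 where the labels number the samples 1 and 2, and is called DI150 replicate 3.

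Within a column of the deposited CPM, 1 read is worth 0.0376 to 0.0476 CPM, and 100.0% of the 146724 values were whole reads within 1e-06 reads. Symbols came from RefSeq (GRCm38.p6, which is the mm10 build) for 24374 gene numbers (99.67%). Genes averaging 1 CPM or more, 11428 in all, were fitted on log2(CPM + 0.5) with limma 3.58.1 in R 4.3.3 (eBayes with a trend, 3 residual and 4.52 prior degrees of freedom), all 6 libraries together. Two-sided p-values were adjusted by Benjamini-Hochberg over all tested genes, with a threshold of 0.05. Folds are ratios of mean CPM, errors are standard errors (SE), and the pseudocount makes log2 fold changes of low genes too small. Such p-values reflect no more than the spread between these 6 libraries.

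Alternatives were pseudocounts of 0.1 and 1 CPM, no filter, TMM, median-of-ratios and quantile scaling, the 4 compared libraries alone, robust variances, a replicate block, each library left out, and edgeR 4.0.16 and DESeq2 1.42.0 on the recovered reads. edgeR called 7610 genes in I80 against PBS, 7852 in DI150 against PBS and 4997 in DI150 against I80, beside 7591, 7853 and 5008 by limma.

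The 32 genes and all lists were chosen with earlier results of these data known. All 32 are named. Of the 3 further lists, the genes named are up to 3 called genes with the largest rise and up to 3 with the largest fall per line against PBS, at a mean of at least 5 CPM, with Trp63 and Trp73. Exon lengths and overlaps are from GENCODE M21. The value of 1 immune marker is not reported here.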

Additional observations from a re-analysis of the deposited data

Results flagged for a closer look

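DI150 and I80 differed from each other by limma for 10 of the 28 tested p53 genes (35.7%), beside 43.8% of all tested genes. The log2 difference was 0.68 for Phlda3 and 0.48 for Sesn1, which were higher in DI150. It was -0.75 for Ccng1, -0.59 for Xpc, -0.57 for Bbc3, -0.42 for Bax, -0.41 for Plk3, -0.38 for Ei24, -0.31 for Trp53 and -0.20 for Aen, which were lower in DI150. Phlda3 and Xpc were called in opposite directions against PBS in the treated lines. Against PBS, the fall of Phlda3 in I80 held under every alternative. Its rise in DI150 and both calls of Xpc against PBS did not. Between the treated lines the calls of Phlda3 and Xpc held, and each of the other 8 was lost without at least 1 library.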

How the results depend on the processing

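Over 18 alternatives, 8 of 18 member calls in I80, 8 of 17 in DI150 and 2 of 10 between the treated lines held under each. Over the genes and alternatives together 1293 results kept their call, 152 lost and 42 gained one, and 25 changed sign without being called. The 5 falls in DI150 became 3 without a filter, with median-of-ratios or quantile scaling and by DESeq2, 2 with only the 4 libraries compared, and 0 with the replicate block. Between the treated lines the 2 rises became 4 with only the 4 libraries compared. The replicate block gave 1 rise and 1 fall there, and 2688 of all genes called. That block leaves DI150 replicate 3 without a partner, so DI150 rests on replicate 1, and the numbers did not pair the libraries (correlations of replicate differences 0.02 for I80 and PBS, -0.06 for DI150 and PBS, 0.21 for DI150 and I80). With DI150 replicate 3 as replicate 2, a fit chosen after seeing the data, no count moved by over 1.5 times. Leaving out 1 library gave 8 to 18 rises and 2 to 6 falls in I80, 0 to 6 falls in DI150, and 1 to 4 rises, 1 to 11 falls and 2487 to 5972 called genes between the treated lines.

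Signs changed in DI150 against PBS for Sesn1 (0.016) and Sesn2 (0.014) with quantile scaling, Sesn2 (0.17) with the block and Polk (-0.0021) by edgeR, and in DI150 against I80 for Trp53inp1 (0.039), Btg2 (0.31) and Ak1 (0.035) with the block. With 1 library left out, log2 fold changes crossed 0 in I80 against PBS for Trp53 (-0.0062 to 0.18), Mdm4 (-0.19 to 0.063), Plk2 (-0.088 to 0.039), Dcxr (-0.99 to 0.24) and Ddb2 (-0.029 to 0.42). They did so in DI150 against PBS for Trp53inp1 (-0.15 to 1.70), Ccng1 (-0.53 to 0.17), Ei24 (-0.034 to 0.10), Sesn1 (-0.17 to 0.0078), Sesn2 (-0.37 to 0.25) and Polk (-0.21 to 0.25), and in DI150 against I80 for Mdm4 (-0.28 to 0.023), Cdkn1a (-0.020 to 0.23) and Btg2 (-0.43 to 0.35). The cause of these changes was not tested beyond the smaller number of libraries. Of 576 results of named genes outside the set, 30 lost their call, for Sirt1, Hipk2, Cop1, Atr, Bub1 and Cdc25c. With 2 libraries per line, errors of log2 fold changes from 0.07 to 0.49 limit what could be told apart.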
